A study of Drosophila melanogaster with 15 samples.

Results

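The Mst84D, Mst87F and Mst98C genes of Drosophila melanogaster encode the Mst(3)CGP proteins, small structural proteins of the sperm tail built around repeats of cysteine, glycine and proline. They are transcribed in primary spermatocytes, and their messengers are stored untranslated until the spermatids elongate. Their transcription is known to need the testis-specific TAFs (tTAFs, testis forms of general transcription factor subunits) and the testis meiotic arrest complex (tMAC), which together switch on the spermatid programme in spermatocytes. The family has 7 members, Mst84Da, Mst84Db, Mst84Dc, Mst84Dd, Mst87F, Mst98Ca and Mst98Cb, and they were taken by name from a count table of 17408 genes. All 7 passed the filter on low counts when it was applied to all libraries together, as did 10056 genes in all.

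RNA was sequenced from cells sorted by green fluorescence from adult testes, in 15 libraries that form 5 groups of 3. The question of the study was what raised Chinmo, lowered Chinmo, JAK/STAT signalling and Hedgehog signalling change in the somatic stem cells of the testis. In every group tj-Gal4, a driver active in the somatic cyst lineage, expressed the nuclear marker UAS-GFPnls in w/Y males. The testes of 50 to 100 flies, 100 to 200 in number, were pooled for each library. No label states that libraries of 1 group had separate cultures or crosses, so the p-values cover the spread between these samples, which may be technical. WT carried a second UAS-GFPnls in place of a test transgene, and its flies were 10 days old after eclosion. Upd carried UAS-Upd, the JAK/STAT ligand, and UAS-GFP at 10 days. Ci carried UAS-Ci5Ncm5 and UAS-Ci5m30, forms of the Hedgehog transcription factor Cubitus interruptus, at 10 days. Chinmo carried UAS-5'UTR-chinmo-3'UTR with tub-gal80TS, a repressor of Gal4 that WT lacked, at 10 days. The last group carried the hairpin UAS-chinmoRNAi (HMS00036) with UAS-dcr2 and was 2 or 3 days old, so the hairpin, dcr2 and age cannot be told apart.

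Counts assigned to genes ran from 1143049 (Chinmo 3) to 2943120 (Ci 2) per library. Chinmo 3 stood apart, with 4983 genes detected against 8109 to 13229 in the other 14 libraries. Genes named as rRNA took 32.3% of its gene counts, against 12.8% (Ci 2) to 24.2% (Chinmo 1) in the others. Its ambiguous reads, 26.8% of all reads, were also the highest share. The transgene genes were checked first. Against WT, upd1 was higher in Upd (log2 4.84 ± 0.96 SE, edgeR adjusted p = 0.00045), ci in Ci (3.57 ± 0.54, edgeR adjusted p = 0.0087) and chinmo in Chinmo (2.53 ± 0.54, edgeR adjusted p = 0.0270). The Chinmo libraries were uneven, with chinmo at 100.1, 392 and 761 CPM in Chinmo 1 to 3 against 69.8 to 75.2 CPM in WT. Chinmo 1 lay above WT but below all Ci libraries (106 to 208 CPM), and the highest value was in Chinmo 3, the library with few genes detected. Upd also held more chinmo (607 ± 107 CPM, log2 3.08 ± 0.55, edgeR adjusted p = 0.00015) and more ci (218 ± 25.9 CPM, log2 2.97 ± 0.53, edgeR adjusted p = 0.00015) than WT. In the hairpin group chinmo stood at 117 ± 48.3 CPM against 71.9 ± 2.87 CPM in WT (log2 0.70 ± 0.51, edgeR adjusted p = 0.437). The targeted transcript was not lower there, so these are called the libraries labelled Chinmo RNAi, and each direction given for them carries that limit. All 4 cyst lineage markers (tj, zfh1, eya and dsx) had counts in every group. The sum of their levels was 264 to 448 CPM in WT and 929 to 1249 CPM in Upd. Most of the WT sum was eya (267 ± 66.5 CPM). The gene of the driver, tj, stood at 6.33 ± 9.20 CPM in WT, zfh1 at 15.9 ± 6.78 and dsx at 46.2 ± 16.9. In Upd tj, zfh1 and dsx stood at 222 ± 23.2, 456 ± 85.6 and 360 ± 62.1 CPM, and eya at 36.1 ± 25.6. The members are germline genes, and in bulk RNA fewer cells of a type and less RNA per cell cannot be told apart.

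All 7 genes lie on chromosome arm 3R at 3 places (coordinates from the Ensembl annotation of BDGP6.54). Mst84Dd (FBgn0004175, 7363307 to 7363773, minus strand), Mst84Dc (FBgn0004174, 7364254 to 7364673, minus) and Mst84Db (FBgn0004173, 7365160 to 7365627, minus) stand in a row with gaps of 480 and 486 bases. Mst84Da (FBgn0004172, 7365850 to 7366262, plus) follows after 222 bases on the opposite strand. These 4 genes have 2 exons each, and their proteins have 55 to 74 residues. Mst87F (FBgn0002862, 13827151 to 13828008, minus) also has 2 exons and encodes 56 residues. Mst98Ca (FBgn0002865, 28291338 to 28292656, plus) and Mst98Cb (FBgn0004171, 28292798 to 28293863, plus) are single-exon genes that lie 141 bases apart. Their proteins, of 334 and 265 residues, are the longest of the family.

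**Figure D1:**
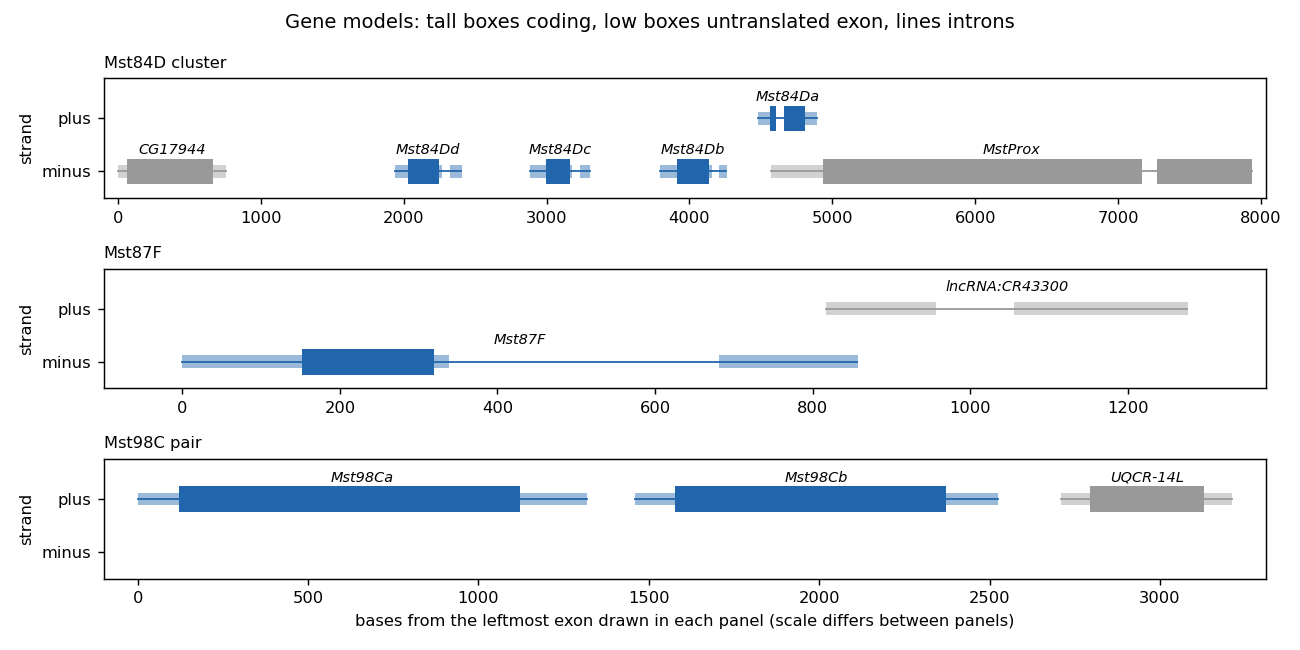
Gene models of the family members (blue) and the annotated genes that touch or neighbour them (grey), drawn by strand against the distance in bases from the leftmost exon of each panel. Tall boxes are coding sequence, low boxes untranslated exon and lines introns. The exons of MstProx cover most of Mst84Da from the opposite strand.

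One overlap bears on the counts. MstProx, on the opposite strand, covers 269 of the 358 exonic bases of Mst84Da (75.1%), which leaves 89 bases free. The strand setting of the authors' counting is not given in the sources used here, and a read that fits 2 genes may have gone to neither, so the level of Mst84Da is uncertain. MstProx itself had no count in WT, Chinmo or the libraries labelled Chinmo RNAi, 12 counts in Ci and 2 in Upd. Of the 623 exonic bases of Mst87F 41 overlap the noncoding gene CR43300, which had 15 counts in WT and 3 in Upd. The Mst84D genes resemble each other, and so do both Mst98C genes. How the counting split reads between such copies was not analysed here, so values of single copies are less certain than their sums.

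The control cells held high levels of the family. Its summed level was 3336, 6359 and 4235 CPM (counts scaled to the TMM-adjusted size of each library) in WT 1, 2 and 3. This is 0.333% to 0.686% of the counts assigned to genes, rRNA genes included. Per kilobase of annotated exon, a rough scale for genes of different length, Mst84Db led with 3360 ± 1114 CPM per kb in WT (SD, n = 3). Mst87F (1866 ± 518 CPM per kb), Mst84Dc (1616 ± 619 CPM per kb) and Mst84Dd (1582 ± 703 CPM per kb) followed and lay within each other's SD. For Mst87F the 623 exonic bases used join 2 transcripts, and its canonical transcript has 515. Mst98Cb and Mst98Ca stood lower, at 388 ± 101 and 320 ± 105 CPM per kb, and did not differ beyond their SD. Mst84Da was the lowest, at 22.8 ± 21.0 CPM per kb over exons most of which are shared with MstProx. WT 2 held the highest level of all 7 members among the WT libraries. It also had the highest WT sum of the 14 other sperm and spermatid protein genes, 7231 CPM against 3945 and 5350 CPM in WT 1 and WT 3.

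**Figure D2:**
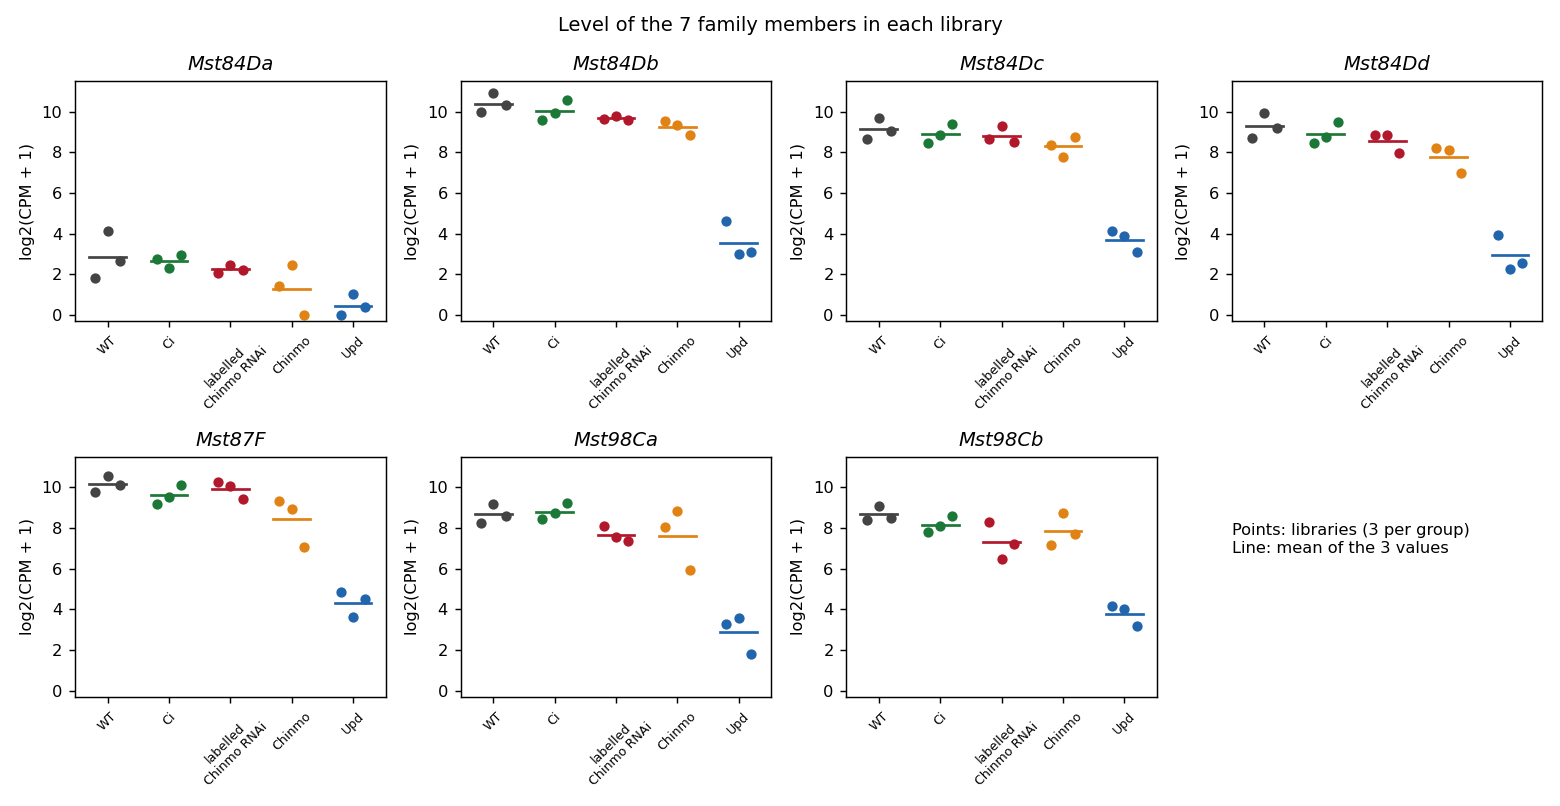
Level of each member in each library, as log2(CPM + 1), by group. Points are libraries and lines are the mean of the 3 plotted values. In Upd all 7 members lie below every WT library, while the other 3 groups overlap WT for most members.

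Upd cells carried little of the family. The summed level was 107.8, 62.8 and 53.0 CPM in Upd 1, 2 and 3, and all 3 libraries were below all WT libraries. All 7 members fell, where 25.3% of all genes tested were called lower in this comparison (edgeR quasi-likelihood test, adjusted over all genes, threshold 0.05). The call of Mst84Da depended on the filter and on single libraries, as given below. For all 7 every Upd library lay below every WT library, as for 35.1% of all genes. The median log2 change was -5.84 over the members and -0.07 over all genes.

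Among the short proteins of the 84D cluster, Mst84Db stood at 1009, 1907 and 1268 CPM in WT 1 to 3 and at 23.6, 7.01 and 7.48 CPM in Upd 1 to 3. Upd 1 held more than the other Upd libraries, and the groups were far apart. On the log2 scale the difference was -6.78 ± 0.52 (SE; edgeR adjusted p = 3.4e-09), from 1394 ± 462 to 12.7 ± 9.42 CPM (SD, n = 3), or 110.2-fold lower. Mst84Dd stood at 411, 979 and 579.7 CPM in WT and at 14.4, 3.86 and 4.99 CPM in Upd. Upd 1 was again the highest Upd library and lay below every WT library. The log2 change was -6.41 ± 0.60 (edgeR adjusted p = 4.3e-08). Mst84Dc stood at 396, 834 and 529 CPM in WT and at 16.4, 13.7 and 7.48 CPM in Upd. Its Upd libraries lay closer together than those of Mst84Db, and all were below WT. The log2 change was -5.55 ± 0.50 (edgeR adjusted p = 2.2e-08). Without Upd 1 the log2 change became -7.57 for Mst84Db and -7.19 for Mst84Dd.

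Mst84Da was near the limit of detection throughout. It had 5, 42 and 11 counts in WT 1 to 3 and 0, 3 and 1 counts in Upd 1 to 3. In CPM these were 2.57, 16.7 and 5.22 in WT and 0, 1.05 and 0.312 in Upd, where 0 counts in Upd 1 allow up to 1.20 CPM (3 counts, counting error only). WT 2 was high, and the groups did not overlap. Mst84Da fell by 3.99 ± 1.33 on the log2 scale (SE, edgeR adjusted p = 0.0221). The call was lost without WT 2 (log2 -2.93, edgeR adjusted p = 0.138), without Upd 1 (-3.49, edgeR adjusted p = 0.108) and without Upd 3 (-3.78, edgeR adjusted p = 0.102), and the log2 change was -5.18 without Upd 2. Ci held 13, 17 and 16 counts of Mst84Da. With only the Upd and WT libraries the gene did not pass the filter on low counts and was not tested.

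Mst87F, long studied for the translational control of its messenger in spermatids, stood at 870.5, 1509 and 1107 CPM in WT and at 27.6, 11.2 and 22.1 CPM in Upd. Every Upd library lay far below the lowest WT library. The fitted log2 change was -5.84 ± 0.55 (edgeR adjusted p = 4.7e-08), from 1162 ± 323 to 20.3 ± 8.32 CPM. The longer Mst98Ca stood at 307, 576 and 384 CPM in WT and at 8.79, 10.9 and 2.49 CPM in Upd. Its lowest value was in Upd 3, and the groups did not overlap. Its log2 change was -5.84 ± 0.67 (edgeR adjusted p = 6.5e-07). Its neighbour Mst98Cb stood at 341, 537 and 363 CPM in WT and at 17.2, 15.1 and 8.11 CPM in Upd. Upd 3 was again the lowest library. The log2 change was -4.94 ± 0.57 (edgeR adjusted p = 7.6e-07), a 30.7-fold difference between 413 ± 107 and 13.5 ± 4.75 CPM. Whether members fell by different amounts was not tested.

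Genes of the same programme were set beside the members. The lists were chosen with earlier results of these data known, so their counts are a description. All comparisons with WT use the same WT libraries, so their values are not independent of each other. Of 14 other sperm and spermatid protein genes tested all 14 were lower in Upd, against the 25.3% of all genes above. Their median log2 change was -6.16, and examples are Mst77F, a chromatin protein of condensing spermatids (-6.17 ± 0.47, edgeR adjusted p = 3.4e-09), and S-Lap1, a leucyl aminopeptidase of sperm (-6.12 ± 0.58, edgeR adjusted p = 4.3e-08). Of 14 tested cup and comet genes, which are transcribed after meiosis, 13 were lower, with a median of -5.77, or -5.59 with the genes without a count in Upd set at their limit. Among 8 spermatocyte genes 4 were lower, including betaTub85D, the testis beta-tubulin (-6.33 ± 1.13, edgeR adjusted p = 0.00031), and CG9975, also known as fest (-4.03 ± 0.50, edgeR adjusted p = 1.8e-06). The median of these 8 was -2.26. CycB3, a B-type cyclin, held 83.8 ± 16.5 CPM in Upd and 21.2 ± 3.38 in the WT libraries, without overlap (1.98 ± 0.95, edgeR adjusted p = 0.111), and DESeq2 and limma-voom each called 1 gene of the list higher.

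The transcription regulators of the family were read in Upd as well. None of the 5 tTAF genes passed edgeR's test, none had an unadjusted p under 0.05, and DESeq2 and limma-voom called 0. The estimates had wide errors. Their median log2 change was -1.35, with Taf12L at 9.88 ± 7.54 against 25.3 ± 3.70 CPM (-1.35 ± 1.10, edgeR adjusted p = 0.368, no overlap), sa at 5.63 ± 3.00 against 21.5 ± 24.1 CPM (-1.93 ± 1.28, edgeR adjusted p = 0.257) and nht at 2.02 ± 0.425 against 9.98 ± 11.1 CPM (-2.28 ± 1.54, edgeR adjusted p = 0.269). Of 6 tested tMAC genes 1 was higher, where 9.22% of all genes were, and none lower. This was Caf1, the histone-binding subunit Caf1-55 that is not specific to the testis (114 ± 5.71 against 24.9 ± 13.3 CPM, 2.19 ± 0.76, edgeR adjusted p = 0.0291), and the call was lost without WT 2. vis stood at 3.54 ± 1.02 against 10.0 ± 6.38 CPM (-1.49 ± 1.25, edgeR adjusted p = 0.381). The median of the tMAC list was 0.19. The difference between these lists and the members was not tested.

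Markers of other cells moved with the fall of the family. Of 8 early germ line genes 7 were higher in Upd, with a median log2 change of 5.05. Their summed level was 1080 to 1205 CPM in Upd and 37.0 to 80.7 CPM in WT, and all 8 had counts in both groups. Examples are vas, an RNA helicase gene (5.48 ± 0.92, edgeR adjusted p = 8.0e-05), and aub, a Piwi-class gene (5.17 ± 0.90, edgeR adjusted p = 0.00013). Of the 4 cyst lineage markers tj, zfh1 and dsx were higher and eya was lower. Among 4 hub genes CadN and upd1 were higher, the second being the transgene's own gene, and hh and Fas3 were lower. In the muscle sheath list Act87E and Mlc2 were lower among 3 tested, with a sum of 9.12 to 17.97 CPM in Upd and 191 to 235 CPM in WT. The part of these markers in the fall of the family was not tested.

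**Figure D3:**
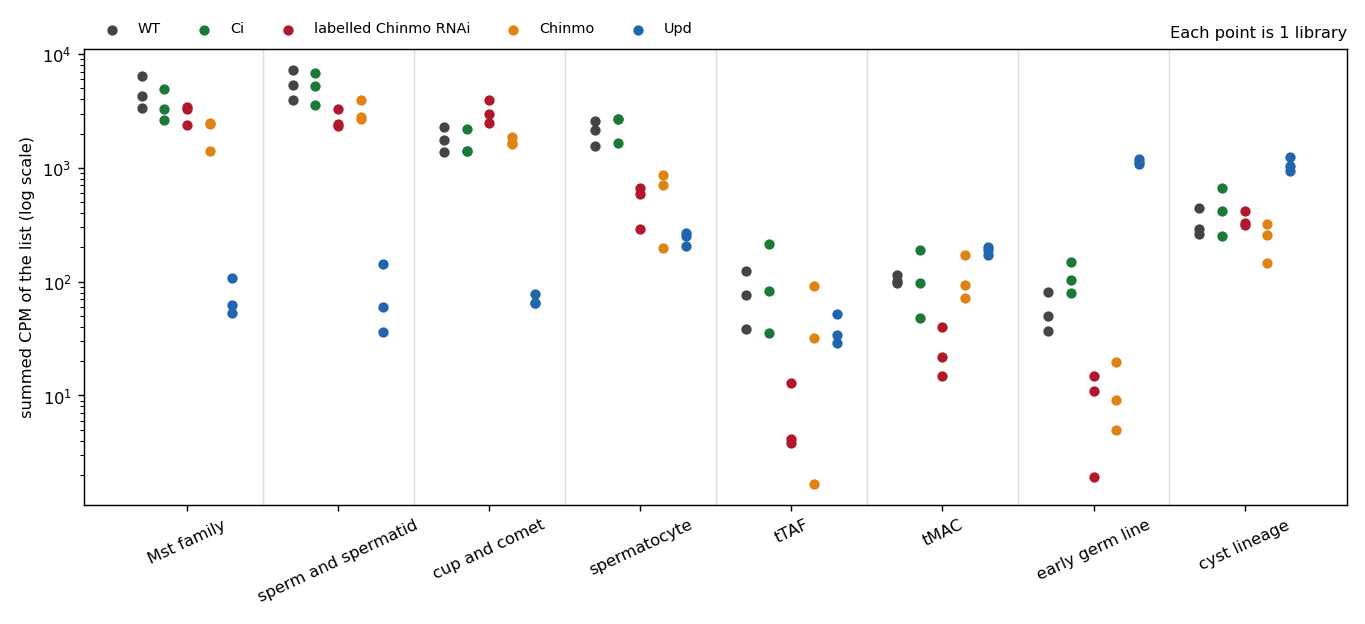
Summed CPM of the 7 family members and of 7 gene lists in each library, on a log scale, with groups by colour. In Upd the family and both spermatid lists lie below all other groups while the early germ line list lies above them. In the libraries labelled Chinmo RNAi the family lies at 2385 to 3441 CPM (WT 3336 to 6359 CPM). The tTAF sum there is 3.85 to 12.8 CPM (WT 38.0 to 124 CPM).

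In Chinmo the members stood lower than in WT in every fitted change, but none passed edgeR's test. Of all genes tested 1.05% were called lower. The summed level was 2429, 2499 and 1402 CPM in Chinmo 1, 2 and 3, all below the lowest WT library. The log2 changes ran from -1.80 to -0.69, with a median of -1.18 over the members and -0.32 over all genes, and edgeR adjusted p from 0.0711 to 0.445. At an unadjusted p under 0.05 there were 4 members (Mst84Db, Mst84Dc, Mst84Dd and Mst87F). At that level stood 2416 of all 10056 genes, in either direction. DESeq2 called 3 of the 4 members (Mst84Db, Mst84Dd and Mst87F), where it called 1210 of all genes lower. Of the same members limma-voom called 2 (Mst84Db and Mst87F), where it called 641 of all genes lower.

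The members with the smallest p in Chinmo were short ones. Mst87F stood at 648, 485 and 133 CPM in Chinmo 1 to 3, all below the WT libraries given above. Its log2 change was -1.46 ± 0.46 (edgeR adjusted p = 0.0711), and -1.90 without Chinmo 1 (edgeR adjusted p = 0.0337). Mst84Dd stood at 295, 276 and 125 CPM (-1.50 ± 0.48, edgeR adjusted p = 0.0769) and Mst84Db at 747, 645 and 454 CPM (-1.18 ± 0.41, edgeR adjusted p = 0.0921). For these 3 members the groups did not overlap, with Chinmo lower, as for 20.7% of all genes. Mst84Dc, at 331, 218 and 424 CPM, overlapped WT (-0.86 ± 0.41, edgeR adjusted p = 0.200).

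The Mst98C genes were uneven among the Chinmo libraries. Mst98Ca stood at 264, 450.5 and 59.8 CPM (-0.70 ± 0.54, edgeR adjusted p = 0.445) and Mst98Cb at 142, 419 and 208 CPM (-0.69 ± 0.48, edgeR adjusted p = 0.402). Chinmo 2 was the highest for both and lay within the WT range. Without Chinmo 3, the library with few genes detected, no member was called and the log2 changes were -1.64 to -0.51 (edgeR adjusted p from 0.0880 to 0.501). Mst84Da had 2, 7 and 0 counts in Chinmo 1 to 3. A count of 0 in Chinmo 3 allows up to 4.99 CPM, above the 2.57 CPM of WT 1. The fitted log2 change of Mst84Da was -1.80 ± 1.22 (edgeR adjusted p = 0.382), and its few counts limit this estimate.

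Other spermatogenesis genes in Chinmo were read in the same way. Of 8 spermatocyte genes 1 was lower, fzo, a mitofusin gene of spermatids (9.19 ± 9.17 against 121 ± 33.7 CPM, -3.63 ± 0.87, edgeR adjusted p = 0.0365), with a list median of -2.29. In this list 1 gene was called lower without Chinmo 3, 3 by DESeq2 and 4 by limma-voom. Of all genes 53, 1210 and 641 were called lower in these fits. Without WT 2 the list had 0, but so had all 10500 genes tested, so this 0 does not bear on the list. None of the tTAF, tMAC, sperm and spermatid, cup and comet, early germ line, cyst lineage, hub or muscle sheath genes passed. Their medians were -0.87, -1.75, -1.30, -1.60, -2.67, -0.26, -0.89 and -1.13, beside -0.32 over all genes, and the early germ line median was -2.61 with zpg at its limit. At an unadjusted p under 0.05 the sperm and spermatid list had 4 lower genes, with 3 called by DESeq2 and 2 by limma-voom. The early germ line list had 5 lower genes at that level, with 5 called by DESeq2 and 2 by limma-voom. The cup and comet list had 3 lower and 1 higher, with 3 lower called by DESeq2 and 2 by limma-voom. The tMAC, cyst lineage and muscle sheath lists had 1 lower gene each, with 1 called in each by DESeq2 and 0 by limma-voom, and the tTAF and hub lists had 0 by every tool. The summed early germ line level was 4.99 to 19.8 CPM, with bam and zpg at 0, and the summed muscle sheath level was 13.3 to 103 CPM, with up at 0. Their part in the members' values was not tested.

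In Ci no member differed from WT past the test. The summed level was 2625, 3302 and 4963 CPM in Ci 1, 2 and 3, so Ci 1 and Ci 2 lay below the lowest WT library and Ci 3 within the WT range. No member passed edgeR's test, none had an unadjusted p under 0.05, and neither DESeq2 nor limma-voom called any. The test called 0.00994% of all genes in this comparison in either direction. The log2 changes ran from -0.57 to 0.12 (SE 0.40 to 1.13), with a median of -0.42 beside 0.01 over all genes, and the edgeR adjusted p was 1 for all 7. No member had groups that did not overlap, where 12.2% of all genes did. Mst84Db stood at 776, 975 and 1502 CPM, Mst87F at 570.1, 745 and 1093 CPM and Mst98Ca at 348, 426 and 599 CPM. Ci 3 was the highest Ci library for all 7 members. None of the 9 gene lists had a gene called by edgeR, DESeq2 or limma-voom in Ci, and at an unadjusted p under 0.05 there were 3 cyst lineage genes and 1 hub gene, all higher. The list medians were -0.06 for sperm and spermatid proteins, -0.14 for cup and comet genes, 0.17 for spermatocyte genes, 0.63 for tTAFs and 0.19 for tMAC. For the early germ line, cyst lineage, hub and muscle sheath they were 1.12, 1.81, 0.00 and -0.19.

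**Figure D4:**
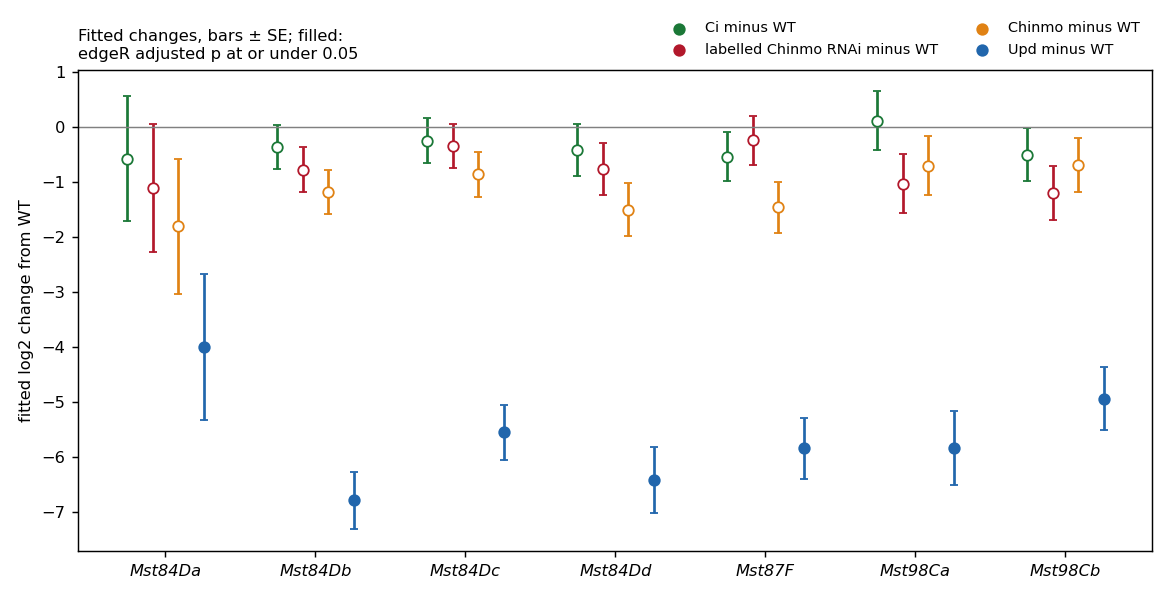
Fitted log2 change from WT of the 7 members in 4 comparisons, with bars of ± SE. Filled points passed the edgeR test, as all 7 did in Upd, and open points did not. The Upd values run from -6.78 to -3.99, and the others from -1.80 to 0.12.

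In the libraries labelled Chinmo RNAi the fitted change of every member from WT was negative. The summed level was 3441, 3308 and 2385 CPM, with Chinmo RNAi 1 within the WT range and the others below it. No member passed edgeR's test, where 5.38% of all genes were called lower. The log2 changes ran from -1.19 to -0.24, with a median of -0.77 beside -0.06 over all genes, and edgeR adjusted p from 0.141 to 0.795. At an unadjusted p under 0.05 there was 1 member, Mst98Cb, where 2320 of 10056 genes were at that level in either direction. DESeq2 and limma-voom called Mst98Cb as well, where they called 1419 and 1177 of all genes lower. A fit of only these groups called 3 members lower (Mst84Db, Mst98Ca and Mst98Cb) and 919 of 8265 genes.

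The lowest estimates were those of Mst98Cb, Mst84Da and Mst98Ca, in that order. Mst84Da, with 19 counts over the group, was at -1.11 ± 1.16 (edgeR adjusted p = 0.612). Mst98Cb stood at 309, 86.7 and 148 CPM (-1.19 ± 0.49, edgeR adjusted p = 0.141) and Mst98Ca at 272, 186 and 164 CPM (-1.03 ± 0.54, edgeR adjusted p = 0.260). Neither overlapped WT, and nor did Mst84Db, at 784, 889 and 779 CPM (-0.77 ± 0.40, edgeR adjusted p = 0.257). The libraries lay below WT without overlap for these 3 members and for 20.8% of all genes. Mst87F stood at 1214, 1063 and 677 CPM, with Chinmo RNAi 3 alone below the WT range (-0.24 ± 0.45, edgeR adjusted p = 0.795). Mst84Dc, at 402, 624 and 363 CPM, and Mst84Dd, at 457, 454 and 251 CPM, also overlapped WT. Without Chinmo RNAi 2, which had 8109 genes detected, no member was called and the log2 changes were -1.25 to -0.30.

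Beside these values, the summed levels of the regulators lay below WT, while few single genes passed the test. The summed tTAF level was 3.85, 4.13 and 12.8 CPM from the lowest to the highest library, against 38.0 to 124 CPM in WT. The tMAC sum was 14.8 to 40.2 CPM against 97.5 to 114.9 CPM. Taf12L, the tTAF gene rye, was lower, with no count where WT held 25.3 ± 3.70 CPM, at least 42.7-fold lower (3 counts over the group, edgeR adjusted p = 0.0155). It was the tTAF gene edgeR called of 5, where 5 had an unadjusted p under 0.05, DESeq2 called 3 and limma-voom 1. The tTAF list had a median of -3.12 that stood at the same value with the genes at 0 set at their limit. nht also had no count, against 9.98 ± 11.1 CPM, at least 16.8-fold lower (edgeR adjusted p = 0.0612). Of 6 tMAC genes edgeR called none, where 5 had an unadjusted p under 0.05, DESeq2 called 4 and limma-voom 3. aly, the founding member of the meiotic arrest class, had no count against 3.81 ± 2.73 CPM, at least 6.42-fold lower (edgeR adjusted p = 0.0829), and mip40 stood at 5.87 ± 1.20 against 27.2 ± 6.13 CPM (-2.20 ± 0.90, edgeR adjusted p = 0.141). The tMAC median was -3.20, or -2.94 with aly at its limit.

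Genes of the spermatid programme were counted in the libraries labelled Chinmo RNAi with edgeR, and the lists were not tested against each other. Of 8 spermatocyte genes 5 were lower (median -3.04; 6 by DESeq2 and 6 by limma-voom, 2 with the replicate number as a block), such as CycB3 (0.730 ± 0.778 against 21.2 ± 3.38 CPM, -4.69 ± 1.19, edgeR adjusted p = 0.0239). Of 14 sperm and spermatid genes 2 were lower (3 by DESeq2, 4 by limma-voom, 1 with the block), with a median of -0.95: Mst77F (229.6 ± 38.3 against 919 ± 280 CPM, -2.00 ± 0.39, edgeR adjusted p = 0.0084) and Mst36Fa (2.06 ± 3.57 against 51.4 ± 29.7 CPM, -4.53 ± 1.27, edgeR adjusted p = 0.0355). Of 14 cup and comet genes 3 were lower and 1, scpr-B, was higher (median -2.45; 5 lower by DESeq2, 8 by limma-voom, 1 with the block), where 1.38% of all genes were called higher. Of 8 early germ line genes 2 were lower (6 by DESeq2, 2 by limma-voom, 0 with the block), with a sum of 1.93 to 14.8 CPM and nos and zpg at 0. Their median was -3.20, or -2.54 with nos and zpg at their limits. edgeR called no cyst lineage, hub or muscle sheath gene, and their medians were 0.86, 1.06 and -0.89. In the hub list 2 genes had an unadjusted p under 0.05, DESeq2 called 1 and limma-voom 2, and the other lists had 0 by every tool. Without Chinmo RNAi 2, 0 genes of the 9 lists were called in these libraries, Taf12L, Mst77F and scpr-B included. That fit called 6 genes higher and 29 lower of 10599, against 139 and 541 in the main fit. The loss of calls was therefore not particular to the lists. Whether the members' changes differ from those of the regulators was not tested.

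By summed level the groups ranked WT (4644 ± 1552 CPM), Ci (3630 ± 1203 CPM), the libraries labelled Chinmo RNAi (3045 ± 575 CPM), Chinmo (2110 ± 614 CPM) and Upd (74.5 ± 29.2 CPM, SD, n = 3). Single members did not all follow that order. Mst87F was higher in the libraries labelled Chinmo RNAi than in Ci, and Mst98Ca was highest in Ci. The groups between WT and Upd in this order were compared with each other next. Between Ci and the libraries labelled Chinmo RNAi edgeR called no member and 10.6% of all genes in either direction, with 1 member (Mst98Ca) at an unadjusted p under 0.05 and 0 called by DESeq2 or limma-voom. Between Chinmo and the libraries labelled Chinmo RNAi it called no member and 3.78% of all genes, with 1 member (Mst87F) at an unadjusted p under 0.05 and 0 called by the other tools. Between Chinmo and Ci it called no member and 8.07% of all genes, with 1 member (Mst84Dd) at an unadjusted p under 0.05, which DESeq2 called and limma-voom did not.

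Upd lay apart from each of the other groups. Chinmo was higher than Upd for 6 members, as for 24.2% of all genes, with log2 differences of 4.25 to 5.60 for these 6. Upd was lower than Ci for 6 members, as for 23.5% of all genes, by -6.42 to -4.44 on the log2 scale. It was lower than the libraries labelled Chinmo RNAi for 6 members, as for 20.5% of all genes, by -6.01 to -3.75 on the log2 scale. The member not called by edgeR was Mst84Da in all 3 comparisons, with log2 2.19 ± 1.33 (edgeR adjusted p = 0.195) for Chinmo against Upd. For Upd against Ci it was -3.42 ± 1.30 (edgeR adjusted p = 0.0510), and for Upd against the libraries labelled Chinmo RNAi -2.88 ± 1.30 (edgeR adjusted p = 0.0971). DESeq2 and limma-voom called Mst84Da lower than in Ci, and limma-voom called it lower than in the libraries labelled Chinmo RNAi as well.

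The make-up of the family was compared within libraries, where scaling plays no part. In WT the Mst98C genes gave 19.4%, 17.5% and 17.6% of the family's counts, and in Ci 21.8%, 21.2% and 19.7%. These libraries lay close together. In Upd the share was 24.1%, 41.3% and 20% and in Chinmo 16.7%, 34.8% and 19.1%. The libraries labelled Chinmo RNAi had shares of 16.9%, 8.24% and 13.1%. Upd 2 and Chinmo 2 were high, and all libraries labelled Chinmo RNAi were below the lowest WT library. The Upd shares rest on 170 to 270 family counts per library. Across the 5 groups the log2 ratio of Mst98C to the 5 short members did not pass an exact permutation test over libraries (p = 0.0572, 53.6% of the spread between groups, 1401400 partitions, 3 libraries per group). The p was 0.00583 without Chinmo 2, 0.0358 without Upd 3, 0.0409 without Chinmo 1, 0.0422 without Chinmo RNAi 1 and 0.192 without Chinmo RNAi 2, so single libraries decide on which side of the threshold it falls. Mst84Db held 30.1 ± 0.159% of the family in WT, 29.8 ± 0.413% in Ci, 29.6 ± 3.40% in Chinmo and 15.7 ± 5.52% in Upd. In the libraries labelled Chinmo RNAi it held 27.4 ± 4.95%. The Upd value rests on 59, 20 and 24 counts in Upd 1 to 3. Shares of single members were not tested.

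**Figure D5:**
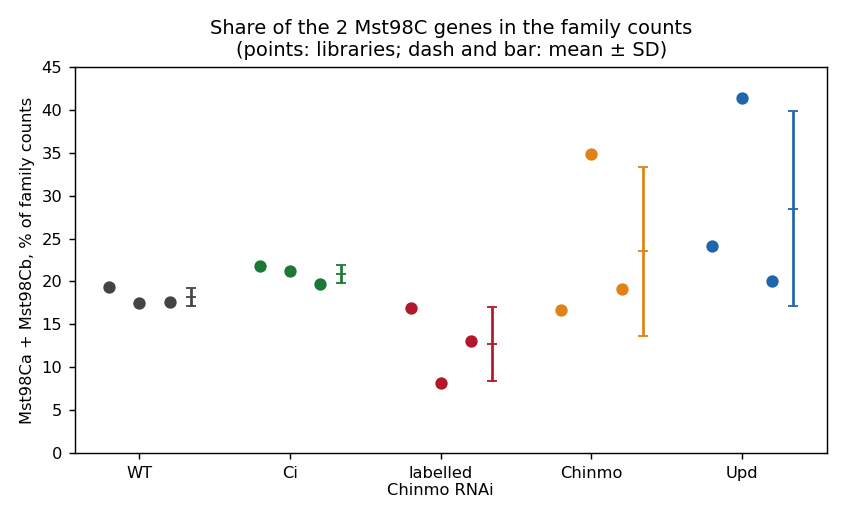
Share of Mst98Ca and Mst98Cb in the family's counts in each library, in percent, with mean ± SD beside the points. WT lies at 17.5% to 19.4%, Upd reaches 41.3% and the libraries labelled Chinmo RNAi lie at 8.24% to 16.9%.

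Across the 15 libraries the members followed each other, largely through the gap between Upd and the rest. Pearson's r of log2(CPM + 1) was 0.892 to 0.993 between the 6 members other than Mst84Da and 0.695 to 0.814 between Mst84Da and the others (description, 15 libraries that share depth and scaling). With each group's mean taken out, r ran from 0.0653 (Mst84Dc with Mst87F) to 0.921 (Mst84Db with Mst84Dd). For the cluster neighbours Mst84Dc and Mst84Dd it was 0.453. The genes with the pattern most like the members' mean were CG2127 (r = 0.994), CG17376 (0.992), CG31226 (0.989), CG12861 (0.989), CG34168 (0.988) and CG46059 (0.986), of 10049 genes compared over 15 libraries. CG2127 averaged 899 ± 224 CPM in WT and 21.2 in Upd, and r was above 0.95 for 107 genes.

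The genes beside the members were read as well. UQCR-14L, named as a copy of a subunit of respiratory complex III, starts 184 bases after Mst98Cb. It stood at 33.4, 70.0 and 51.3 CPM in WT and had 3 counts over all Upd libraries against 349 over WT, a ratio of 152 (exact 95% counting interval 51.5 to 739). It was lower in Upd (edgeR adjusted p = 0.00016) and did not overlap WT in Chinmo (10.0, 26.3 and 0 CPM) or in the libraries labelled Chinmo RNAi (7.70, 5.78 and 12.9 CPM), where the edgeR adjusted p was 0.193 and 0.107. CG17944, 1183 bases from Mst84Dd, averaged 60.6 ± 28.2 CPM in WT and 2.16 ± 2.02 in Upd (-4.79 ± 1.04, edgeR adjusted p = 0.0010). The other neighbours had few counts. CG34437, to the left of Mst98Ca, had none in WT and Upd and 4 in Ci, and the noncoding CR43642, to the left of Mst87F, had 5 in WT and 3 in Upd.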

How the data were processed

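Polyadenylated RNA of sorted testis cells was sequenced paired-end with 50 cycles, per the labels' protocols. Per the submitters' processing notes the tools were bcl2fastq, STAR, Picard, HTSeq and DESeq2, on dm6 and BDGP6. Tool versions, gene annotation release and any strand option: not given in the sources used here. Whole read counts make up the authors' deposited table, whose 5 summary lines stayed out of library totals and tests. Reads assigned to no gene and ambiguous reads, 2 of those lines, were 7.01% to 17.0% and 13.5% to 26.8% of all reads in the table. The deposited signal held these counts divided by 1 size factor per library and served for 1 alternative scaling.

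Genes were filtered with filterByExpr, scaled by TMM and fitted with edgeR 4.0.16 (glmQLFit, robust, R 4.3.3) over all 15 libraries with 1 mean per group. The two-sided quasi-likelihood F test was adjusted by Benjamini and Hochberg over 10056 genes with a threshold of 0.05, in 10 comparisons. Levels are CPM as mean ± SD, and changes are log2 with SE from the F statistic. The common dispersion was 0.427. The Mst98C ratio used a pseudocount of 1 count. A count of 0 was given a limit of 3 counts, and intervals and limits cover counting error only. The code was tried on simulated counts of 2 groups at a time, which is not the fit over all 15 libraries, and no result rests on it. The members and the 9 lists (tTAF, tMAC, spermatocyte, sperm and spermatid proteins, cup and comet, early germ line, cyst lineage, hub, muscle sheath; 70 of 72 genes found, 5 by an alias) were chosen with earlier results of these data known. Genes named were all members, up to 4 tTAF or tMAC and 3 other list genes per comparison by adjusted p, the 6 genes most correlated with the members, the direct neighbours and the transgene genes; list genes named as markers, regulators at 0 or by their call alone go beyond this. Alternatives were 3 other scalings, 2 other filters, DESeq2 1.42.0, limma-voom (limma 3.58.1), the replicate number as a block, a fit of only the groups compared and each library left out. Sequences were not analysed here.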

Additional observations from a re-analysis of the deposited data

How the results depend on the processing

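The call of 6 members lower in Upd than in WT held in all 15 alternatives. That of Mst84Da held in 11 of the 14 that tested it (adjusted p 0.0025 to 0.138). It did not pass the filter with only the 2 groups compared. In each alternative 6 to 7 members were called. The replicate numbers did not pair the libraries (correlations of same-numbered libraries from -0.08 to 0.30), and at most 3 of 6 libraries correlated best with their own number in any comparison. With the replicate block all 7 members were lower in Upd (Mst84Da adjusted p = 0.0318), none was called in Chinmo, Ci or the libraries labelled Chinmo RNAi, and Upd against Ci had 7 called in place of 6, as also with the 5 CPM filter, the authors' size factors, RLE, DESeq2, limma-voom and only the 2 groups compared. Upd against the libraries labelled Chinmo RNAi had 7 with limma-voom and 6 otherwise. In Chinmo against WT 1 member was called with the authors' size factors and 1 with RLE, 2 without a filter and 2 with limma-voom, 3 with DESeq2 and 0 to 1 with each library left out. Without WT 1, without WT 2 or without WT 3 no gene at all was called in that comparison. For the libraries labelled Chinmo RNAi 1 member was called with DESeq2, 1 with limma-voom and 3 with only the 2 groups compared. DESeq2 called 1 for Chinmo against Ci, and only the 2 groups compared gave 1 for Ci against the libraries labelled Chinmo RNAi. The p of the Mst98C ratio was 0.0392 with a pseudocount of 5 and 0.00583 to 0.192 with each library left out. Of values that were not called, signs turned in 16 cases. With each library left out, Ci against WT ran from -1.04 to 0.49 for Mst84Da, -0.53 to 0.10 for Mst84Dc and -0.13 to 0.40 for Mst98Ca, and Mst84Dc in the libraries labelled Chinmo RNAi from -0.71 to 0.000107. Chinmo against Ci ran from -0.75 to 0.11 for Mst98Cb, and was 0.044 with upper-quartile scaling. Chinmo against the libraries labelled Chinmo RNAi ran from -0.35 to 0.71 for Mst98Ca and -0.060 to 1.13 for Mst98Cb. Ci against the libraries labelled Chinmo RNAi ran from -0.19 to 0.37 for Mst84Dc and -0.0073 to 0.55 for Mst84Dd, and was 0.095 (RLE and DESeq2) and 0.096 (authors' size factors) for Mst87F. The cause was not tested. The median of all genes in Chinmo against WT was -0.32 with TMM, -0.61 with RLE or the authors' size factors and -0.18 with the upper quartile, and changes are to be read relative to it. Genes higher and lower in Chinmo were 176 and 106 with TMM, 79 and 124 with RLE or the authors' size factors and 480 and 182 with the upper quartile, and in the libraries labelled Chinmo RNAi 139 and 541 with TMM and 88 and 790 with RLE or the authors' size factors, and for Upd against the latter 975 and 2058 with TMM and 1353 and 1783 with the authors' size factors. Genes called in all ran from 2577 to 5350 (Upd against WT), 0 to 1617 (Chinmo), 0 to 3 (Ci) and 35 to 1678 (libraries labelled Chinmo RNAi). Depth limits Mst84Da, with 0 to 42 counts per library.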

Other observations

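scpr-B, listed with the cup and comet genes, moved in opposite directions in 2 comparisons that share the WT libraries. It stood at 694 ± 146 CPM in WT, 2859.5 ± 782 CPM in the libraries labelled Chinmo RNAi (log2 2.04 ± 0.37, edgeR adjusted p = 0.0064) and 3.57 ± 0.677 CPM in Upd (log2 -7.57 ± 0.49, edgeR adjusted p = 3.6e-10). In Chinmo scpr-B stood at 1338 ± 271 CPM, without overlap with WT (log2 0.95 ± 0.36, edgeR adjusted p = 0.123). It made up most of the cup and comet sum in the libraries labelled Chinmo RNAi, which was 2476 to 3937 CPM. The hub list had summed levels of 472 to 523 CPM in the libraries labelled Chinmo RNAi and 100.6 to 180.2 CPM in WT, with hh at 187 ± 13.3 against 41.7 ± 20.5 CPM (log2 2.16 ± 0.74, edgeR adjusted p = 0.0770). Without Chinmo RNAi 2 the scpr-B change was not called, in a fit that called 6 genes higher of 10599.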
